A study of Mus musculus with 16 samples.

Results

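The metabotropic glutamate receptors described here are the products of 6 mouse genes, Grm2, Grm3, Grm4, Grm5, Grm7 and Grm8, taken by name from the 55266 genes to which the transcripts of the count matrices were summed. Every transcript of the 6 genes in the count matrices was kept, which gave 32 of 142435 transcripts. Of the 32, 29 had counts in at least 1 deeply sequenced library and 17 reached a mean of 0.5 CPM, the count scaled to a common library total, in at least 1 group.

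The RNA came from the frontal cortex and the cerebellum of adult mice without a functional Upf3b gene (Upf3b-KO) and of their control littermates (Ctrl), and was measured by bulk RNA-seq. The Upf3b protein takes part in nonsense-mediated decay (NMD), by which cells remove transcripts with an early stop codon and some others. Both tissues were taken from 4 adult Upf3b-null and 4 littermate Ctrl mice, and each tissue and genotype had 4 libraries, so that the 16 libraries formed 4 groups. The labels name no treatment for any group, and the tissues were measured in bulk, so that fewer cells of a type and less RNA per cell cannot be told apart. The sex, the strain and the design of the null allele were not given in the sources used here. The questions were which receptor genes and isoforms differed in level between Upf3b-KO and Ctrl in each tissue, and whether that response differed between the tissues.

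Metabotropic glutamate receptors are receptors on the cell surface that bind the transmitter glutamate and act through G proteins rather than by opening a channel of their own. Group I receptors, among them the product of Grm5, couple to Gq, which activates phospholipase C and releases calcium from internal stores, and they sit mostly on the postsynaptic side, where Homer proteins tether them. Group II receptors (Grm2, Grm3) and group III receptors (Grm4, Grm7, Grm8) couple to Gi and Go, lower adenylyl cyclase activity and often act as brakes on transmitter release from the presynaptic terminal. Grm5 is known as a forebrain receptor, Grm4 as a receptor of the terminals of cerebellar granule cells, and Grm2 as a receptor of cerebellar Golgi cells. Grm3 is made by neurons and by astrocytes, and the product of Grm7 sits at the release sites of many synapses.

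On the mouse genome GRCm39, Grm2 lies at chr9:106520294-106533870 on the minus strand, with 4 transcripts in the matrices. Grm3 lies at chr5:9534069-9776088 on the minus strand and had 1 transcript there, so that no isoform share could be given for it. Grm4 lies at chr17:27641361-27740377 on the minus strand with 8 transcripts. Grm5 lies at chr7:87233376-87784594 on the plus strand with 7 transcripts. Grm7 and Grm8 lie on the same chromosome, at chr6:110622542-111544191 on the plus strand with 5 transcripts and at chr6:27275118-28135177 on the minus strand with 7 transcripts.

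The isoforms differ in short stretches of sequence, which are printed here, 5′ to 3′ on the strand of the gene, because the isoform results turn on them. The first is the coding exon of 96 bases at chr7:87765401-87765496 (GRCm39) that Grm5-204 holds and Grm5-202 lacks. Its capitals mark the exon and its lower case the coding bases on either side.
Grm5-204 exon: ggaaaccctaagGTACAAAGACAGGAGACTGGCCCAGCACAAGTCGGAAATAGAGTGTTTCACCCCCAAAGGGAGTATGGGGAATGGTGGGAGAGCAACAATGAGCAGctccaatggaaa

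Of the 17 transcripts described below, 2 carry the annotated type for NMD, Grm7-204 and Grm4-208. Grm7-204 holds an extra exon of 34 bases at chr6:110680403-110680436, in capitals here. That length is not a multiple of 3, and the run ends with the stop codon that the annotation gives, 1918 nt upstream of the last exon junction. Grm4-208 skips the exon of 217 bases at chr17:27691882-27692098. Its run shows the new junction, with the bases after it in capitals up to the annotated stop codon, which lies 1926 nt upstream of the last exon junction.
Grm7-204 exon: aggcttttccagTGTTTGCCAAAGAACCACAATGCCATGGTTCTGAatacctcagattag
Grm4-208 junction: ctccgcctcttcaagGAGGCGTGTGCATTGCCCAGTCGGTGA

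Grm2-203 removes 834 coding bases at chr9:106524470-106525303, a multiple of 3, and its junction is shown with the bases after it in capitals.
Grm2-203 junction: tatcgctaccagaagACCCGCAAGTGCCCG

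The group III genes also differ in the exon that ends the reading frame, and the tails are shown to compare the 3 genes and the isoforms within a gene, with the stop codon in capitals. The tails of Grm4-201 (chr17:27645758-27645807), Grm7-202 (chr6:111542979-111543028) and Grm8-201 (chr6:27275644-27275693) each had 50 bases. Aligned from the start of the tail, Grm4-201 was identical to Grm7-202 at 30 positions and to Grm8-201 at 30 positions, and Grm7-202 was identical to Grm8-201 at 27 positions. Grm7-201 (chr6:111478471-111478541) and Grm8-202 (chr6:27285684-27285733) end in other sequence.
Grm4-201 tail: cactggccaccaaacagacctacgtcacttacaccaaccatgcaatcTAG
Grm7-202 tail: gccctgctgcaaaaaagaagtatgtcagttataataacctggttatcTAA
Grm8-201 tail: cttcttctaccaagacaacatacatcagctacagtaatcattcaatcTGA
Grm7-201 tail: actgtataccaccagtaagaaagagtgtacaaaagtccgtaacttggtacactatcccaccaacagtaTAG
Grm8-202 tail: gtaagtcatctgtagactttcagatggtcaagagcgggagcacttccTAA

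The 15 deep libraries held 27660078 to 35238677 counts, in which 3 counts correspond to 0.0851 to 0.1085 CPM. The remaining library, Upf3b-KO cerebellum replicate 1, held 64981 counts and was left out, so that Upf3b-KO cerebellum had 3 libraries. Upf3b itself fell from 14.8 ± 0.637 CPM (SD, n = 4) to 0.559 ± 0.257 CPM (n = 4) in frontal cortex and from 22.7 ± 1.23 CPM (n = 4) to 0.737 ± 0.198 CPM (n = 3) in cerebellum, with log2 changes of -4.79 and -4.97. Replicates lay close together, with a median coefficient of variation of 1.87% to 2.22% among genes above 2000 counts, and the labels do not tie a library to a mouse or say whether the same replicate number in both tissues marks the same mouse. The p-values measure the spread between these libraries.

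Summed markers of several cell types differed between genotypes and stand beside the results below. In cerebellum, the granule cell list (8 genes) summed to 3960 to 3980 CPM in Ctrl and 2060 to 2070 CPM in Upf3b-KO libraries, and 8 of 8 genes were lower. The Purkinje cell list (6 genes) summed to 7610 to 7760 CPM in Ctrl and 3080 to 3100 CPM in Upf3b-KO libraries, and 6 of 6 were lower. A list for neurons of hindbrain and midbrain outside the cerebellar cortex (8 genes) summed to 54.8 to 57.6 CPM in Ctrl and 405 to 413 CPM in Upf3b-KO libraries, and 8 of 8 were higher. Among them Hoxb5, a gene of the hindbrain and spinal cord, was at 0.0418 CPM in Ctrl and 28.1 CPM in Upf3b-KO cerebellum, and Chat, the enzyme that makes acetylcholine, was at 0 in the Ctrl and at 13.6 CPM in the Upf3b-KO libraries. Choroid plexus markers (6 genes) summed to 22 to 25.4 CPM in Ctrl and 1360 to 1390 CPM in Upf3b-KO cerebellum, oligodendrocyte markers (6 genes) to 6210 to 6330 and 14400 to 14500 CPM, oligodendrocyte precursor markers (5 genes) to 86 to 92.7 and 219 to 228 CPM, and Bergmann glia and astrocyte markers (7 genes) to 6710 to 6750 and 5480 to 5540 CPM. Golgi cell markers (5 genes) summed to 156 to 160 CPM in Ctrl and 375 to 383 CPM in Upf3b-KO cerebellum, with 4 of 5 higher, and Slc6a5, which is on the hindbrain list too, took 35 and 176 CPM of them. In frontal cortex, striatal medium spiny neuron markers (8 genes) summed to 162 to 174 CPM in Ctrl and 782 to 795 CPM in Upf3b-KO libraries, choroid plexus markers to 17.6 to 18.7 and 2130 to 2190 CPM, oligodendrocyte markers to 7560 to 7640 and 10200 to 10300 CPM, and astrocyte markers to 4360 to 4400 and 3530 to 3580 CPM, while cortical excitatory neuron markers (8 genes) summed to 533 to 550 and 533 to 539 CPM.

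**Figure D1:**
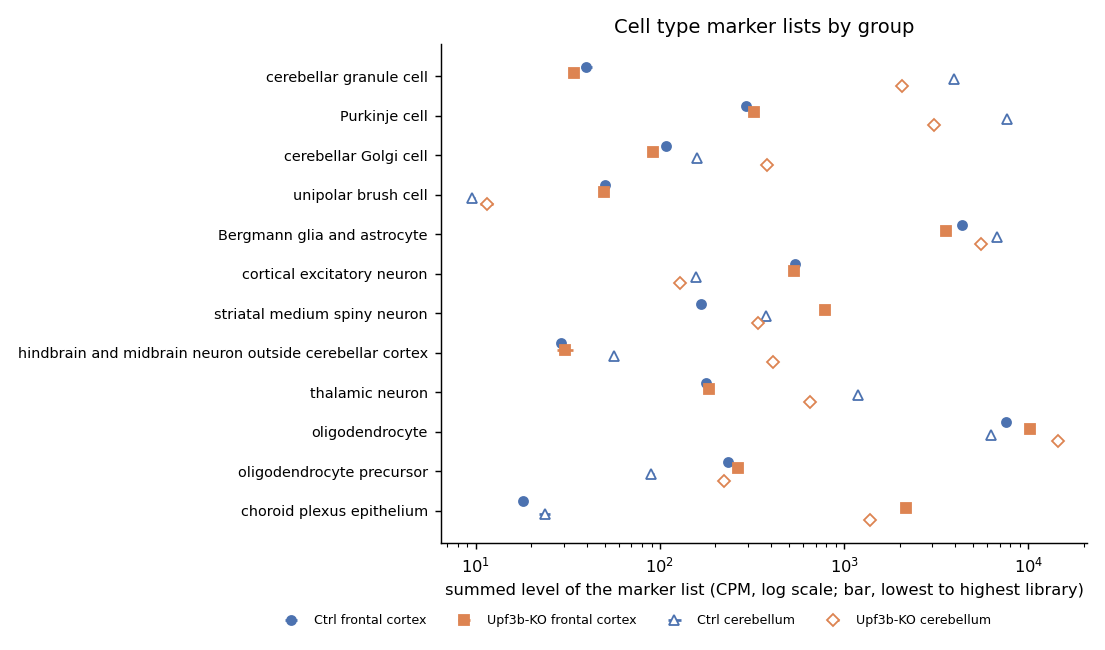
Summed CPM of cell type marker lists by group on a log axis, with a bar from the lowest to the highest library and a point at the middle of that bar. In cerebellum the granule cell and Purkinje cell sums were lower in Upf3b-KO (2060 to 2070 against 3960 to 3980 CPM for granule cells) and the hindbrain, oligodendrocyte and choroid plexus sums were higher.

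In Ctrl mice Grm4 was higher in cerebellum than in frontal cortex, and the other 5 receptor genes were lower. Grm5 stood at 286.4 ± 2.37 CPM (SD, n = 4) in frontal cortex and at 10.67 ± 0.489 CPM (n = 4) in cerebellum, which was 28.1-fold lower there. Grm4 stood at 7.345 ± 0.325 CPM (n = 4) in frontal cortex and 129.6 ± 2.67 CPM (n = 4) in cerebellum, 16.9-fold higher there. All 6 genes passed the test between the Ctrl tissues (the quasi-likelihood test of edgeR, p-values adjusted by Benjamini and Hochberg, adjusted p under 0.05), 1 higher and 5 lower in cerebellum, where 76.5% of all genes tested passed. At the limits of the study, adjusted p under 0.01 and fold over 2, 3 members were called (Grm3, Grm4 and Grm5) beside 25.1% of all genes.

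The other 4 members differed less between the Ctrl tissues. Grm3 was 3.51-fold lower in cerebellum (33.51 ± 0.697 against 113 ± 1.98 CPM, n = 4 each), Grm2 1.96-fold lower (23.42 ± 0.7805 against 44.25 ± 3.23 CPM, n = 4 each) and Grm7 1.65-fold lower (32.98 ± 1.69 against 52.34 ± 4.25 CPM, n = 4 each). Grm8 was at 10.14 ± 0.754 CPM in cerebellum and 11.05 ± 0.238 CPM in frontal cortex (n = 4 each), and its difference had an adjusted p of 0.0432, which did not hold in 11 of 16 alternative settings, among them the removal of any library but Ctrl cerebellum replicate 3 (adjusted p = 0.0576 to 0.153). Adjusted p-values ran from 1.06e-28 for Grm5 to that of Grm8.

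Levels of different genes can be set side by side only per length, as TPM, in which counts are divided by length before they are scaled to a common total, computed from the counts and the annotated transcript lengths. In Ctrl frontal cortex the order of TPM was Grm5 (92.7 ± 0.903, SD, n = 4), Grm3 (50.8 ± 0.948), Grm7 (31.9 ± 2.3), Grm2 (23.2 ± 1.69), Grm8 (8.1 ± 0.873) and Grm4 (4.08 ± 0.0664), and no neighbours in it overlapped between libraries. In Ctrl cerebellum the order of TPM was Grm4 (72 ± 1.76), Grm7 (23.7 ± 2.3), Grm3 (15.8 ± 0.272), Grm2 (12.8 ± 0.405), Grm8 (7.77 ± 0.519) and Grm5 (3.84 ± 0.433), again with no overlap between neighbours. Grm4, lowest of the members in Ctrl frontal cortex, was thus the highest of them in Ctrl cerebellum, and Grm5 held the opposite places.

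**Figure D2:**
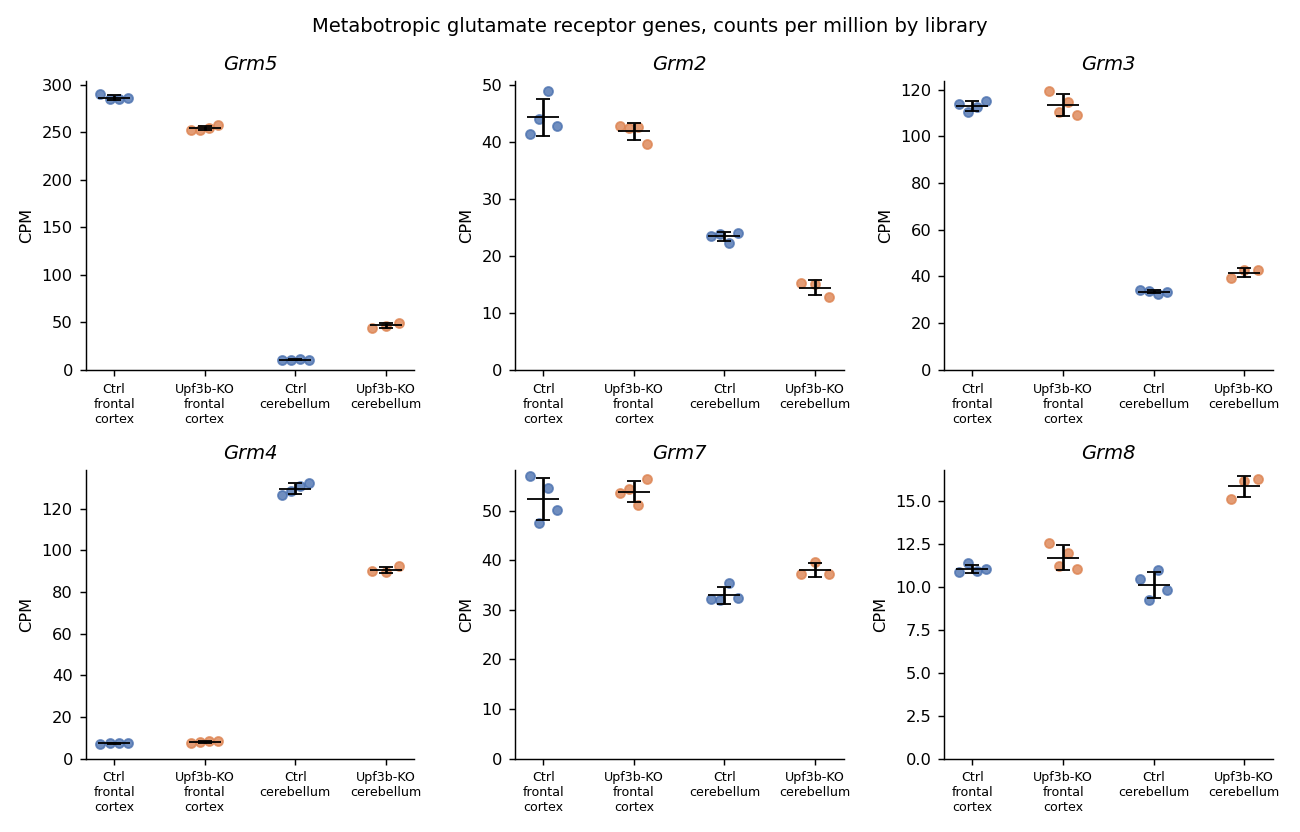
Level of each member gene in CPM in the 4 groups, with 1 point per library and the mean and SD of the group. Grm5 in cerebellum stood at 9.997 to 11.09 CPM in Ctrl and 44.35 to 49.59 CPM in Upf3b-KO libraries, while Grm4 in cerebellum stood at 126.4 to 132.4 and 89.42 to 92.24 CPM.

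In cerebellum all 6 receptor genes differed between Upf3b-KO and Ctrl, 4 higher and 2 lower in Upf3b-KO mice. Grm5 rose 4.26-fold and was the only member called at the limits of the study. Grm8, Grm3 and Grm7 rose by 1.52, 1.2 and 1.12-fold, and Grm2 and Grm4 fell by 1.68 and 1.47-fold. In this comparison 64.4% of the 17785 genes tested passed at an adjusted p under 0.05 and 13.2% were called, and the median log2 change of the 6 members was 0.21 against 0.01 over all genes.

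Grm5, a group I receptor, was measured in Ctrl cerebellum at 10.62, 9.997, 11.09 and 10.95 CPM in replicates 1 to 4. Upf3b-KO cerebellum gave 44.35, 46.57 and 49.59 CPM in replicates 2 to 4. All Upf3b-KO libraries lay far above all Ctrl libraries, and the groups did not overlap. The log2 change was 2.09 ± 0.056 (SE, adjusted p = 1.56e-16). The level remained well under that of frontal cortex, where Ctrl libraries held 284.5 to 289.8 CPM. Grm5 took 2.83% ± 0.296 (SD, n = 4) of the summed TPM of the 6 members in Ctrl cerebellum and 12.4% ± 0.569 (n = 3) in Upf3b-KO cerebellum, and moved from the lowest place among the 6 to the fourth, above Grm8 and Grm2. The hindbrain and midbrain, oligodendrocyte and choroid plexus sums rose in the same libraries, and their part in the change of Grm5 was not tested.

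Among the group II receptors, Grm2 was measured at 23.43, 23.85, 22.32 and 24.08 CPM in Ctrl cerebellum and at 15.32, 15.07 and 12.87 CPM in Upf3b-KO replicates 2 to 4. Every Upf3b-KO library was below every Ctrl library, with a log2 change of -0.75 ± 0.067 (SE, adjusted p = 9.25e-09). The Golgi cell list, whose cells are known to carry Grm2, went the other way in its sum, with Lgi2, a secreted synaptic protein, at 59.1 ± 1.17 CPM in Ctrl and 98.5 ± 1.1 CPM in Upf3b-KO libraries. The unipolar brush cell list (4 genes), for cells also known to carry Grm2, summed to 9.29 to 9.84 CPM in Ctrl and 10.6 to 12.4 CPM in Upf3b-KO libraries, with Lmx1a higher (0.86 and 4.1 CPM) and Eomes lower (7.53 and 5.82 CPM). The part of both lists in the result was not tested. Grm3 was measured at 34.31, 33.78, 32.69 and 33.26 CPM in Ctrl and at 39.33, 42.96 and 42.57 CPM in Upf3b-KO cerebellum. The groups of Grm3 did not overlap, with all Upf3b-KO libraries higher (log2 change 0.26 ± 0.043, SE, adjusted p = 2.72e-05).

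Grm4, a group III receptor, was measured at 126.4, 128.4, 131.1 and 132.4 CPM in Ctrl cerebellum and at 90.17, 89.42 and 92.24 CPM in Upf3b-KO replicates 2 to 4. No Upf3b-KO library reached the lowest Ctrl library, with a log2 change of -0.56 ± 0.027 (SE, adjusted p = 7.26e-13). The granule cell list moved with it, at a median log2 change of -1.07, and its part in the change of Grm4 was not tested. Of the summed TPM of the 6 members, Grm4 took 53% ± 0.878 (SD, n = 4) in Ctrl cerebellum and 37.7% ± 0.538 (n = 3) in Upf3b-KO cerebellum.

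Grm8, another group III receptor, was measured at 10.47, 9.262, 11 and 9.834 CPM in Ctrl and at 15.15, 16.15 and 16.27 CPM in Upf3b-KO cerebellum, with no overlap (log2 change 0.6 ± 0.08, SE, adjusted p = 2.5e-06). Grm7 was measured at 32.11, 31.99, 35.51 and 32.31 CPM in Ctrl and at 37.16, 39.64 and 37.33 CPM in Upf3b-KO cerebellum. Its groups also stayed apart, although Ctrl replicate 3 came within 2 CPM of the Upf3b-KO libraries, and the log2 change was 0.16 ± 0.047 (SE, adjusted p = 0.00679). Without Upf3b-KO replicate 3 the adjusted p of Grm7 was 0.0534.

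In frontal cortex the receptors differed far less. Grm5, Grm2 and Grm3 passed the test with negative log2 changes in Upf3b-KO mice, for Grm3 at mean CPM of 113 in Ctrl and 113.4 in Upf3b-KO libraries, Grm4, Grm7 and Grm8 did not pass, and no member was called by edgeR or by DESeq2. At an unadjusted p under 0.05 the count was 3 as well. Of the 18218 genes tested, 53.3% passed and 10.2% were called, and the median log2 change of the 6 members was -0.05 against 0 over all genes. The 3 members that passed changed by 1.05 to 1.19-fold.

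Grm5 was measured in frontal cortex at 289.8, 285.2, 284.5 and 286.1 CPM in Ctrl replicates 1 to 4 and at 252.6, 252.8, 254.8 and 257.2 CPM in Upf3b-KO replicates 1 to 4. All Upf3b-KO libraries were below all Ctrl libraries, with a log2 change of -0.25 ± 0.016 (SE, adjusted p = 2.35e-11). The change of Grm5 thus had opposite signs in the 2 tissues. Striatal markers were higher in the same Upf3b-KO libraries. The cortical excitatory neuron list summed to 533 to 539 against 533 to 550 CPM, with 3 of its 8 genes higher and 3 lower, 1 of them called (Fezf2, a gene of deep cortical layers, log2 change -1.06). The part of these lists in the result was not tested.

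Grm2 was measured in frontal cortex at 41.43, 43.98, 48.84 and 42.76 CPM in Ctrl and at 42.75, 42.38, 42.61 and 39.59 CPM in Upf3b-KO libraries, so that the groups overlapped. The log2 change of Grm2 was -0.16 ± 0.046 (SE, adjusted p = 0.00629), and it was -0.08 (adjusted p = 0.146) when libraries were scaled by their totals alone. Grm3, at 110.4 to 115 CPM in Ctrl and 109 to 119.3 CPM in Upf3b-KO libraries, overlapped as well. Its log2 change of -0.07 ± 0.028 (SE, adjusted p = 0.0368) rested on the scaling, since with library totals alone it was 0.01 (adjusted p = 0.877) and the median over all genes moved to 0.08. Grm3 also no longer passed when Ctrl replicate 1, 3 or 4 or Upf3b-KO replicate 2 or 4 was left out (adjusted p = 0.0504 to 0.145).

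Grm4 was measured at 7.345 ± 0.325 CPM (SD, n = 4) in Ctrl and 8.102 ± 0.449 CPM (n = 4) in Upf3b-KO frontal cortex, Grm7 at 52.34 ± 4.25 and 53.85 ± 2.17 CPM, and Grm8 at 11.05 ± 0.238 and 11.72 ± 0.714 CPM. Their log2 changes were 0.07 ± 0.088, -0.03 ± 0.047 and 0.01 ± 0.073 (SE), with adjusted p-values of 0.567, 0.565 and 0.929, and that of Grm7 was 0.04 with library totals alone. In all 3 genes the Ctrl and Upf3b-KO libraries overlapped.

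**Figure D3:**
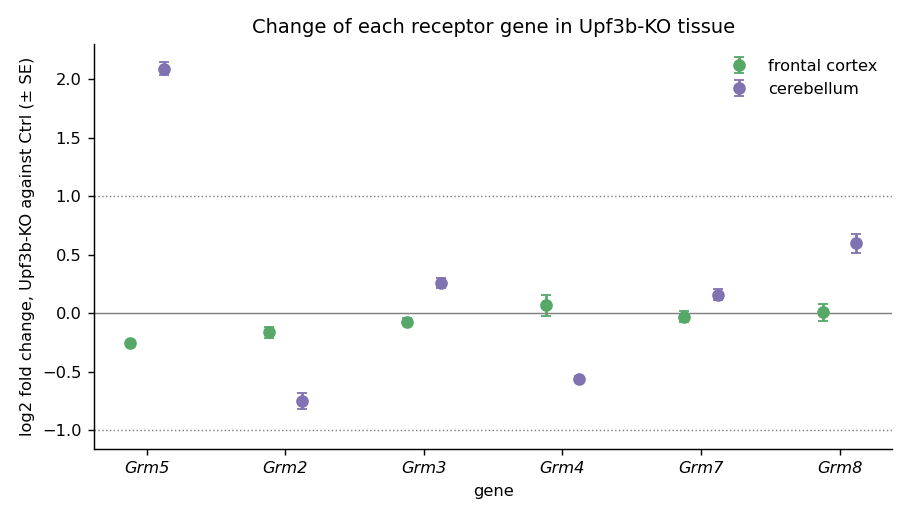
Log2 change of each member gene in Upf3b-KO against Ctrl in frontal cortex and in cerebellum, with the standard error as bars and dotted lines at a fold of 2. Grm5 lay at -0.25 in frontal cortex and at 2.09 in cerebellum, and the changes of the other members lay between -0.75 and 0.6.

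Whether the response differed between frontal cortex and cerebellum was asked with an interaction term of tissue and genotype, in a joint fit of the 15 deep libraries. All 6 members passed it, beside 48% of the 19831 genes tested, and Grm5 was called, beside 9.4% of all genes. The interaction of Grm5, the cerebellar minus the cortical log2 change, was 2.33 ± 0.046 (SE, adjusted p = 2.97e-23). It was -0.64 ± 0.065 for Grm4 (adjusted p = 5.4e-09), -0.6 ± 0.082 for Grm2 (adjusted p = 7.23e-07), 0.58 ± 0.1 for Grm8 (adjusted p = 4.43e-05) and 0.32 ± 0.049 for Grm3 (adjusted p = 4.11e-06). Grm7 had the smallest, 0.18 ± 0.074 (adjusted p = 0.0435), which did not hold in 12 of 24 alternative settings. Among these were the removal of Ctrl frontal cortex replicate 1 or 3, Upf3b-KO frontal cortex replicate 1, 2 or 3, Ctrl cerebellum replicate 1, 2 or 4, or Upf3b-KO cerebellum replicate 3 (adjusted p of Grm7 0.0559 to 0.115). Of the cell type sums above, those of choroid plexus and oligodendrocytes were higher and that of astrocytes lower in Upf3b-KO libraries of both tissues, while the granule cell, Purkinje cell and hindbrain sums differed by far more in cerebellum and the striatal sum in frontal cortex. Their part in these interactions was not tested.

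At the level of single transcripts most of each gene's counts went to 1 isoform, except in Grm8. RSEM divides reads that match several isoforms among them, so that a share is an estimate of the model and varies more between libraries than the gene sum. In Upf3b-KO against Ctrl frontal cortex, 2 of 16 tested member transcripts passed (beside 16.4% of all transcripts tested) and 0 were called (beside 3.22%), by edgeR or by DESeq2, with 3 at an unadjusted p under 0.05. In cerebellum 6 of 17 passed (beside 22.6%) and 2 were called (beside 4.76%). Between the Ctrl tissues 11 of 18 passed (beside 38.8%) and 8 were called (beside 14.9%), and in the interaction 7 of 20 passed (beside 13.3%) and 3 were called (beside 2.97%).

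Grm5-202, the form without the printed exon, held 90.4% ± 0.704 (SD, n = 4) of the counts of Grm5 in Ctrl frontal cortex and 94.2% ± 2.41 (n = 4) in Ctrl cerebellum. Its CPM rose in cerebellum from 10.29, 9.102, 10.47 and 10.34 in Ctrl to 41.23, 42.92 and 45.4 in Upf3b-KO libraries (log2 change 2.1 ± 0.07, SE, adjusted p = 2e-06), and fell in frontal cortex from 256.2 to 262.2 CPM in Ctrl to 223.7 to 229.9 CPM in Upf3b-KO libraries (log2 change -0.25 ± 0.015, adjusted p = 2.04e-05). Neither pair of groups overlapped. Grm5-204, the form with the exon, rose in cerebellum from 0.298, 0.5019, 0.4514 and 0.4266 CPM to 2.028, 2.82 and 3.077 CPM (log2 change 2.64 ± 0.31, SE, adjusted p = 0.00088), and was at 22.72 ± 2.316 CPM (SD, n = 4) and 21.75 ± 2.98 CPM (n = 4) in Ctrl and Upf3b-KO frontal cortex (adjusted p = 0.568).

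The share of Grm5-204 was 7.93% ± 0.797 (SD, n = 4) in Ctrl and 8.55% ± 1.15 (n = 4) in Upf3b-KO frontal cortex, and 3.95% ± 0.908 (n = 4) in Ctrl and 5.61% ± 0.903 (n = 3) in Upf3b-KO cerebellum. Libraries of the 2 genotypes overlapped in both tissues in this share of counts. In the share of TPM, which divides by length, the cerebellar libraries did not overlap (2.794% to 3.624% in Ctrl and 3.937% to 5.404% in Upf3b-KO). The 2 forms differ in the annotation also at the 5′ end, where Grm5-202 has exons that Grm5-204 lacks, so the share does not measure the exon alone. The minor transcripts Grm5-205 and Grm5-206 stood at 1.959 ± 0.4604 and 2.302 ± 0.3731 CPM in Ctrl frontal cortex and at 0.1045 ± 0.07338 and 0.02828 ± 0.03279 CPM in Ctrl cerebellum (SD, n = 4 each). In Upf3b-KO cerebellum Grm5-206, annotated with a retained intron, was at 0.4519, 0.3286 and 0.4821 CPM, above all Ctrl libraries (0 to 0.06028 CPM), with an adjusted p of 0.0389 that rose above 0.05 when any library but Ctrl replicate 3 was left out (0.051 to 0.14).

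Grm7-204, with the decay exon printed above, was measured in frontal cortex at 2.597, 2.567, 2.973 and 2.464 CPM in Ctrl and at 1.416, 1.7, 1.76 and 1.833 CPM in Upf3b-KO libraries. The groups did not overlap, and this NMD-annotated form was lower, not higher, in the Upf3b-KO mice (log2 change -0.73 ± 0.18, SE, adjusted p = 0.0292). Leaving out any 1 library raised its adjusted p to between 0.053 and 0.0799. In cerebellum Grm7-204 was at 1.557 ± 0.5336 CPM (SD, n = 4) in Ctrl and 0.9242 ± 0.1641 CPM (n = 3) in Upf3b-KO libraries, which overlapped (adjusted p = 0.185). Its share of the counts of Grm7 was 5.08% ± 0.421 and 3.12% ± 0.343 in Ctrl and Upf3b-KO frontal cortex, and 4.68% ± 1.43 and 2.44% ± 0.491 in cerebellum (SD, n = 4, and n = 3 in Upf3b-KO cerebellum), with no overlap of Ctrl and Upf3b-KO libraries in either tissue, although the test of isoform use did not pass in either.

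Grm4-208, the other NMD-annotated form, was measured in cerebellum at 1.435, 1.102, 2.002 and 1.644 CPM in Ctrl and at 1.291, 2.443 and 0.7817 CPM in Upf3b-KO libraries. The Upf3b-KO libraries spanned the whole Ctrl range, and the adjusted p was 0.97. In frontal cortex Grm4-208 had counts in 1 of 8 libraries, 0.07475 CPM in Ctrl replicate 1, under the limit that a count of 0 allows.

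Grm4-201 held 96.2% ± 2.02 (SD, n = 4) of the counts of Grm4 in Ctrl and 98.1% ± 1.36 (n = 3) in Upf3b-KO cerebellum and fell there from 122.4, 122.4, 123.1 and 130.5 CPM to 88.88, 86.35 and 91.46 CPM (log2 change -0.49 ± 0.033, SE, adjusted p = 6.08e-05). Grm4-206 was at 2.077, 4.384, 4.905 and 0 CPM in Ctrl cerebellum and at 0 in all 3 deep Upf3b-KO libraries. With 1 Ctrl library also at 0 the groups touched. Its adjusted p was 0.065 at the level of the transcript and 0.0257 in the test of isoform use, which compares a transcript with the rest of its gene. Leaving out any Upf3b-KO library raised the latter to 0.116 to 0.142, and it gave no member transcript that passed without Ctrl replicate 1, 2 or 3 either.

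In the test of isoform use Grm4-206 was the only member transcript that passed in cerebellum, 1 of 16 tested beside 1.27% of all transcripts. None of 15 passed in frontal cortex, beside 0.866% of all transcripts, and none of 17 between the Ctrl tissues, beside 3.51%. At an unadjusted p under 0.05, 0 member transcripts in frontal cortex and 4 between the Ctrl tissues lay under it, among them Grm7-201 and Grm5-204.

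The 2 forms of Grm2 kept close shares. Grm2-201 held 83.3% ± 2.18 and 83.4% ± 1.65 of the counts in Ctrl and Upf3b-KO frontal cortex (SD, n = 4 each), and 85.7% ± 2.47 (n = 4) and 80% ± 3.71 (n = 3) in cerebellum. Grm2-201 fell in cerebellum from 19.34 to 20.9 CPM in Ctrl to 10.47 to 12.46 CPM in Upf3b-KO libraries (log2 change -0.8 ± 0.082, SE, adjusted p = 0.000456). Grm2-203, with the junction printed above, was at 3.352 ± 0.6297 CPM (SD, n = 4) and 2.867 ± 0.7385 CPM (n = 3) in the same groups, which overlapped (adjusted p = 0.615).

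For Grm7, Grm7-202 held 92% ± 0.629 of the counts in Ctrl frontal cortex and 83.3% ± 1.95 in Ctrl cerebellum, and Grm7-201, with the other tail, 2.38% ± 1.39 and 10.5% ± 2.13 (SD, n = 4 each). Every Ctrl cerebellar library (8.18% to 13.2%) was above every Ctrl cortical library (0.789% to 3.86%) in the share of Grm7-201. The test of isoform use gave this difference an adjusted p of 0.0654, and 0.0373 when transcripts under 1 CPM were removed first. In Upf3b-KO cerebellum the share of Grm7-201 was 12.3% ± 3.63 (n = 3), which overlapped with Ctrl.

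The counts of Grm8 were spread over 4 forms whose shares varied widely between libraries of the same group. In Ctrl frontal cortex Grm8-202 took 34.6% to 78% of the counts, Grm8-203 from 0 to 47.4%, Grm8-201 from 6.92% to 20.2% and Grm8-204 from 1.45% to 10.1%. Grm8-202 and Grm8-203 share the other tail and together took most counts in every group. No transcript of Grm8 passed in either comparison of genotypes, although the gene sum did in cerebellum. The single transcript of Grm3 followed its gene, with a log2 change of 0.31 ± 0.044 (SE, adjusted p = 0.00234, or 0.085 with the shallow library kept) in cerebellum and -0.06 ± 0.032 (adjusted p = 0.293) in frontal cortex.

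**Figure D4:**
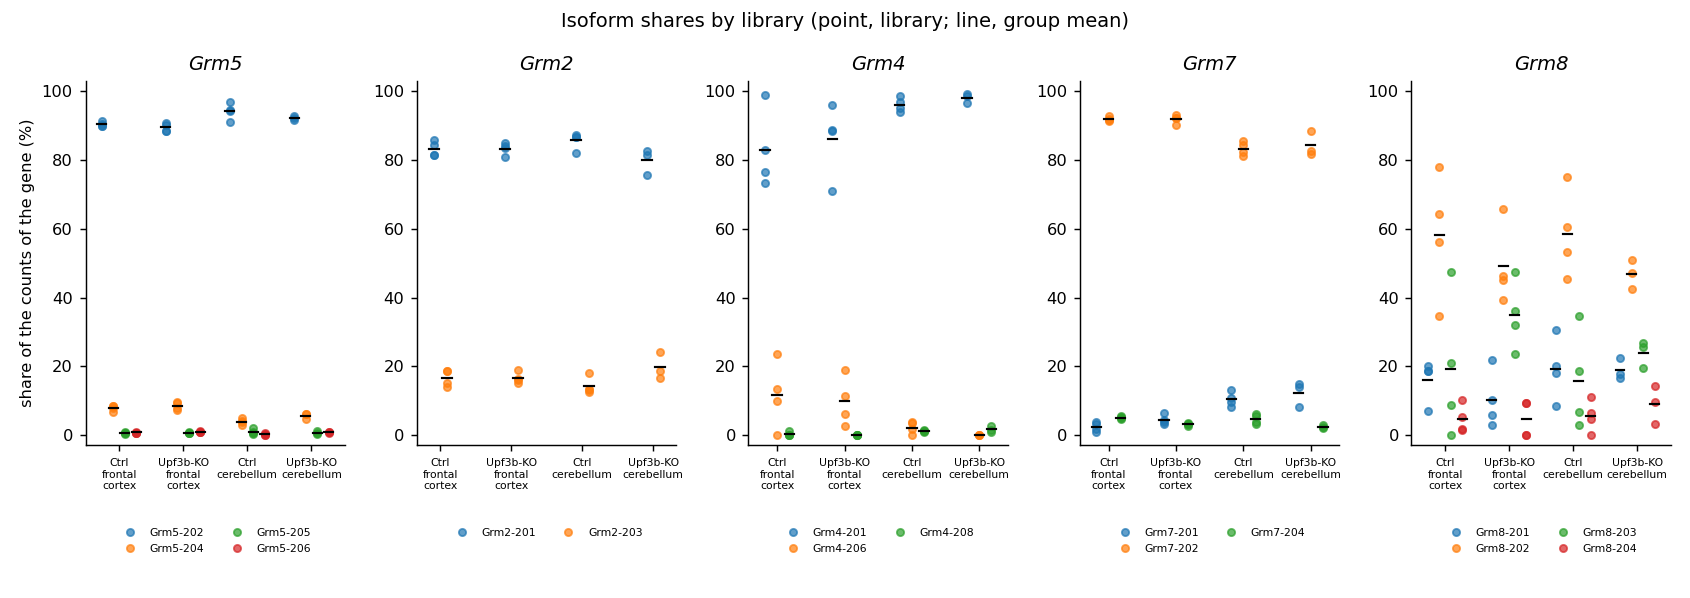
Share of the counts of each gene, in percent, taken by each transcript with at least 0.5 CPM in a group, with 1 point per library and a line at the group mean. Grm5-202, Grm2-201, Grm4-201 and Grm7-202 took most of their gene's counts in all groups, while shares of Grm8 transcripts spread from 0 to 78% within Ctrl frontal cortex.

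Grm6, a further group III gene known from the retina, was at 0 in all 8 Ctrl libraries and had 3 counts in each of 2 Upf3b-KO libraries, which is the limit that a count of 0 allows.

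Of 16 partners of group I receptors (Homer and Shank scaffolds, Gq subunits and their effectors), 13 fell and 1 rose in Upf3b-KO cerebellum, 7 of them called, with a median log2 change of -0.66 against 0.01 over all genes. Of all genes tested there, 31.3% passed lower and 33.1% higher, and 2.86% were called lower. Itpr1, the calcium channel of internal stores, fell from 3890 ± 9.39 to 1730 ± 15.1 CPM (log2 change -1.22), and the scaffold Homer3 fell by 1.08 on the log2 scale. Both moved against the direction of Grm5. Itpr1 and Homer3 are also known from Purkinje cells, whose list fell in the same libraries at a median log2 change of -1.42, and its part in the result was not tested. In frontal cortex 6 of the 16 partners rose and 6 fell, beside 28% and 25.3% of all genes, and none was called, beside 10.2%. Their median was 0.04 against 0 over all genes, with Gnaq, a Gq subunit, at -0.37, Itpr1 at 0.26 and phospholipase Plcb4 at 0.45.

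Of 18 partners of group II and III receptors (Gi and Go subunits, adenylyl cyclases, regulators and synaptic partners), 9 rose and 6 fell in Upf3b-KO cerebellum, beside 33.1% and 31.3% of all genes, with a median log2 change of 0.06 against 0.01 over all genes. Of them 3 were called, Elfn1, a synaptic partner of group III receptors, and Rgs4 higher and Rgs8 lower, beside 13.2% of all genes. The regulators of G protein signalling Rgs4 and Rgs8 went apart, Rgs4 from 16.2 ± 0.66 to 125 ± 2.18 CPM (log2 change 2.9) and Rgs8 from 2240 ± 7.79 to 886 ± 9.65 CPM (log2 change -1.39), while the cyclase Adcy1 fell by 0.85 and the Go subunit Gnao1 by 0.51 on the log2 scale. In the same libraries the median log2 change was -1.42 for the Purkinje cell list, -1.07 for the granule cell list and 6.86 for the hindbrain list. The part of these lists in the result was not tested. In frontal cortex 5 of the 18 partners rose and 10 fell, beside 28% and 25.3% of all genes, and none was called, beside 10.2%. Their median was -0.13 against 0 over all genes, with Rgs4 at 0.53, the cyclase Adcy5 at 0.66, and the G protein subunits Gnai1 at -0.36 and Gnb1 at -0.33.

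Genes of glutamate release and clearance also differed. In Upf3b-KO frontal cortex 9 of 10 fell and 1 rose, beside 25.3% and 28% of all genes, with a median log2 change of -0.28 against 0 over all genes. The one that rose, Slc17a8, a vesicular transporter, was the only one called (log2 change 1.33, adjusted p = 0.000646), beside 10.2% of all genes. Slc17a8 was low, at 0.553 ± 0.229 CPM in Ctrl and 1.47 ± 0.16 CPM in Upf3b-KO libraries, and is named after its values were seen. Among those that fell were the glial transporters Slc1a3 (-0.5) and Slc1a2 (-0.43), and glutamine synthetase Glul (-0.21). The astrocyte list, with 7 of 7 genes lower, fell in the same libraries at a median log2 change of -0.37, and its part in the result was not tested. In cerebellum 6 of the 9 tested genes of release and clearance rose and 3 fell, beside 33.1% and 31.3% of all genes. Their median was 0.31 against 0.01 over all genes, and 2 were called, Slc17a6 higher and Slc1a3 lower, beside 13.2% of all genes. There the vesicular transporter Slc17a6 rose from 9.36 ± 0.482 to 156 ± 1.13 CPM (log2 change 4), Slc17a7, another vesicular transporter, fell from 457 ± 9.63 to 289 ± 3.43 CPM (log2 change -0.71), Slc1a3 fell by 1.14 and the Purkinje cell transporter Slc1a6 by 0.92 on the log2 scale. Slc1a3, Slc1a6 and Slc17a6 stand on marker lists too. The tissue by genotype interaction was 4.17 for Slc17a6, 4 for Elfn1 and 2.36 for Rgs4. Each partner named with a change, other than Slc17a8, had an adjusted p of 6.33e-10 or less in that comparison.

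The genes most like each member over the 15 deep libraries were found by Pearson correlation of log2(CPM + 0.5) among the 10330 genes whose mean reached 10 CPM, as a description, since most of the variation is that between the tissues. Grm5 was most like Vip, Mal2 and Shisal1 (0.999 each), and Vip, a neuropeptide of cortical interneurons, was at 46.9, 40.6, 0.0465 and 4.15 CPM in Ctrl frontal cortex, Upf3b-KO frontal cortex, Ctrl cerebellum and Upf3b-KO cerebellum. Grm4 was most like Fat2, a cadherin of granule cells, with a correlation that rounded to 1, and Lhx1 and Paqr8 (0.999 each), with Fat2 at 213 CPM in Ctrl and 109 CPM in Upf3b-KO cerebellum. Grm3 was most like Lrrc7 (0.999), Npas2 and Adgrb2 (0.998 each), and Grm2 like Tpm1 (0.995), Epb41l1 and Dlgap4 (0.993 each). The closest genes were less close for Grm7 (Zfp106, Keap1 and Tle1, 0.98 to 0.982) and for Grm8 (Arl2, Atp8a2 and Scg2, 0.959 to 0.968).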

How the data were processed

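RNA was purified with RNeasy Plus kits, depleted of ribosomal RNA, made into SMART-Seq libraries and sequenced in read pairs. The authors aligned the reads with STAR 2.5.2b to GRCm39 and estimated expected counts per Ensembl transcript (version 105) with RSEM, and the deposited matrices hold these expected counts, not scaled for depth or length. Whether counting used strand was not given in the sources used here, and genes that overlap others are uncertain. Each library has a column of its own, and whether a library held tissue pooled from several mice was not given in the sources used here.

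The counts were rounded, summed per gene where stated, and tested with edgeR 4.0.16 (limma 3.58.1, under R 4.3.3), by filterByExpr (minimum count 10, total 15), TMM scaling and the quasi-likelihood test, with p-values adjusted by Benjamini and Hochberg over all features. Transcript types, symbols and coordinates came from GENCODE vM39 (141102 of 142435 transcripts, 99.3% to 99.4% of counts). Where a symbol had more than 1 identifier, the one with the most counts was used. CPM are scaled to library totals, and isoform use was tested with diffSpliceDGE. "Passed" means an adjusted p under 0.05, and "called" the study's limits, an adjusted p under 0.01 and a fold over 2. Floors are 3 counts and cover counting error only. The fits were also run on simulated counts, in which genes and transcripts had the same small spread. In the data the biological coefficient of variation was 0.0387 to 0.0407 in the gene fits and 0.49 to 0.636 in the transcript fits. The simulation therefore does not describe the tests of transcripts and isoform use. Alternatives were DESeq2 1.42.0, RLE scaling, a 1 CPM filter or none on low counts, unrounded counts, the replicate number as a block, the shallow library kept, all deep libraries in a joint fit, protein-coding transcripts only, and each library left out. Scaling by library totals alone was added after seeing the data.

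Members and lists were chosen with earlier results of these data known. All member genes and every member transcript with at least 0.5 CPM in a group are described, with at most 4 genes per list and comparison, those of smallest adjusted p, and the 3 genes most like each member. Some genes of the lists that the rule names are not reported here. Marker genes, the called genes Elfn1 (cerebellum) and Slc17a8 (frontal cortex), and Vip and Fat2 with their levels, are named in addition. EBSeq, featureCounts and the authors' gene counts were not used here.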

Additional observations from a re-analysis of the deposited data

Results flagged for a closer look

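By the tissue by genotype interaction, the difference between Upf3b-KO and Ctrl varied with the tissue for all 6 member genes, beside 48% of all genes tested. The values were Grm5 2.33, Grm4 -0.64, Grm2 -0.60, Grm8 0.58, Grm3 0.32 and Grm7 0.18 (cerebellar minus cortical log2 change, adjusted p = 2.97e-23, 5.4e-09, 7.23e-07, 4.43e-05, 4.11e-06 and 0.0435). That of Grm7 no longer passed in 12 alternative settings, and the part of the cell type sums in these interactions was not tested. The interaction passed as well for the transcripts Grm5-206 (3.46), Grm5-204 (2.77), Grm5-202 (2.35), Grm2-201 (-0.66), Grm4-201 (-0.61) and Grm3-201 (0.37). Of these, Grm4-201 no longer passed in 2 of 23 alternative settings, the replicate number as a block (adjusted p = 0.0626) and the removal of Upf3b-KO cerebellum replicate 3 (0.0547), and Grm5-206 in 1 of 23, the block (0.108). The value for Grm4-206, -9.31 (adjusted p = 0.048), is set by the prior count, since all 3 deep Upf3b-KO cerebellar libraries were at 0, and its adjusted p was above 0.05 in 16 of 23 alternative settings (0.0538 to 0.367), among them the removal of any library but Ctrl frontal cortex replicate 2 or Ctrl cerebellum replicate 4.

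In 9 of 68 sets, each of 4 libraries of a group for a gene or transcript, a single library stood apart from the other 3. The limit used is met in about 1 in 20 sets of independent, normal values. A gene and its main transcript were both counted, and some values are 0, so the count cannot be set against that rate. Among gene sums the libraries that stood apart were Grm2 in Upf3b-KO frontal cortex replicate 4 (39.59 CPM, others 42.38 to 42.75) and Grm7 in Ctrl cerebellum replicate 3 (35.51 CPM, others 31.99 to 32.31). Among transcripts they were, in Ctrl cerebellum, Grm2-203 in replicate 2 (4.285 CPM, others 2.963 to 3.179), Grm4-201 in replicate 4 (130.5 CPM, others 122.4 to 123.1) and Grm5-202 in replicate 2 (9.102 CPM, others 10.29 to 10.47). In Ctrl frontal cortex they were Grm5-205 in replicate 1 (1.275 CPM, others 2.105 to 2.264), Grm5-206 in replicate 1 (2.858 CPM, others 2.055 to 2.165), Grm8-201 in replicate 3 (0.7556 CPM, others 2.025 to 2.225) and Grm4-208 in replicate 1 (0.07475 CPM, others 0).

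The shallow Upf3b-KO cerebellar library, left out of the comparisons except in the alternative that keeps it, held 5 counts of Grm5, or 77 CPM (exact Poisson interval at 95% confidence 25 to 180 CPM). The interval covers counting error only. The highest Ctrl cerebellar library was at 11.1 CPM. For Grm2, Grm3, Grm4, Grm7 and Grm8, with 1 to 7 counts, the interval included the highest Ctrl library.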

How the results depend on the processing

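Over 444 refits of single member genes under the alternative settings, 411 kept their side of the threshold, 32 were no longer past it and 1 changed sign. A change of sign was counted only where the main fit or the refit passed, so that of Grm7 in frontal cortex was not counted. Over 1698 refits of member transcripts 1633 kept their side of the threshold, 52 were no longer past it, 13 newly passed it and 0 changed sign by the same count. Grm3 in frontal cortex changed sign, to 0.01, with library totals alone, and without TMM only 1 member passed there at an adjusted p under 0.05, against 3. Of the changes of member genes in cerebellum, that of Grm7 alone lost its pass (without Upf3b-KO replicate 3), and of transcripts there, Grm3-201 lost it in 1 setting and Grm5-206 in 8. With the fold limit dropped and the adjusted p raised from 0.01 to 0.05 together, the counts of members rose from 0 to 3 in frontal cortex, from 1 to 6 in cerebellum, from 1 to 6 in the interaction and from 3 to 6 between the Ctrl tissues, and of member transcripts from 0 to 2, from 2 to 6 and from 3 to 7 in the first 3. In cerebellum DESeq2 called 4 member transcripts in place of 2. Isoform use in cerebellum gave 0 to 1 member transcripts when a library was left out, and between the Ctrl tissues a filter of 1 CPM gave 1.

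Samples with the same replicate number did not deviate together (14 pairs, correlations -0.1 to 0.15, 1 over 0.1, and the own number giving the highest value in 2). With the replicate number as a block, 1 member transcript was called in cerebellum in place of 2, and the interaction of Grm7 had an adjusted p of 0.0508.

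Depth limits transcripts near 1 CPM, and isoform shares moved with the division by length.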
